A study of Mus musculus with 4 samples.

Results

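The genes of the mouse mitochondrial genome were followed in sorted pancreatic β cells from controls and from mice mutant for Robo1 and Robo2, which encode Roundabout receptors. Members were all rows of the deposited gene table whose symbol begins with mt-, which gave 37 of 51912 genes. They comprise 13 protein genes, 2 ribosomal RNA (rRNA) genes and 22 transfer RNA (tRNA) genes, the full gene set of the circular genome in GENCODE M21 on build GRCm38. Cells came from neonates at postnatal day 13, and all 4 libraries carry 1 copy each of Rosa26-lsl-H2B-mCherry, a nuclear red reporter behind a stop cassette, and of Ucn3-Cre, a recombinase driven from a gene of maturing β cells. The 2 control libraries have the genotype Robo1+/+ with Robo2+/+. The 2 mutant libraries are Robo1delta/delta with Robo2flx/flx, so that by its label the Robo1 allele is a deletion, while loss of Robo2 depends on the Cre. Cells were sorted for mCherry, and the labels name no animal for any library. The spread behind each p-value is therefore that between libraries and could be purely technical.

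Mitochondrial DNA encodes a small set of core subunits of the respiratory chain and ATP synthase, together with the rRNAs and tRNAs that translate them. Both strands are transcribed as long precursors from a control region, and the tRNAs that punctuate them are cut out to release the messages. Nuclear genes supply all remaining subunits and the enzymes that transcribe, process and translate the mitochondrial RNA. In β cells, ATP from this pathway closes potassium channels and so couples glucose metabolism to insulin release.

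The libraries held 38886129 to 49593712 counts. Robo1, at 48.5 and 104.1 CPM (the count normalised to the library total, scaled by TMM, the trimmed mean of M-values) in control 1 and control 2, was at 22.3 and 21.03 CPM in mutant 1 and mutant 2. Robo2 was at 75.3 and 118 CPM in control and at 32.7 and 25.6 CPM in mutant cells, and for both genes the genotypes did not overlap. By edgeR's quasi-likelihood test the adjusted p was 0.68 for each, while DESeq2 gave adjusted p-values of 0.00186 and 1.99e-05. The insulin genes, which mark β cells, were abundant in all libraries, Ins1 at 34285 to 48892 CPM and Ins2 at 99747 to 153150 CPM, both lowest in mutant 2. Transcripts of other cells were present too. The glucagon gene Gcg ranged from 11451 CPM in control 2 to 23497 CPM in mutant 2. The 10 acinar markers summed to 5633 and 568 CPM in control 1 and control 2, and to 2592 and 50899 CPM in mutant 1 and mutant 2. Their representative Cpa1, a pancreatic carboxypeptidase gene, was at 2603 CPM in mutant 2 and at 29.8 to 242 CPM in the other libraries. The early response gene Fos was higher in both mutant libraries, at 4886 and 5184 CPM against 3965 and 1829 CPM. In such bulk samples, fewer cells of a type and less RNA per cell cannot be told apart.

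Several members share their sequence with the nuclear genome, and this set what could be read from their counts. GENCODE M21 annotates 7 unprocessed pseudogenes in a row on chromosome 1, from 24611535 to 24616197 on the minus strand (GRCm38), a span of 4663 bases. They follow the order of the mitochondrial genes mt-Co1, mt-Co2, mt-Atp6, mt-Co3, mt-Nd3, mt-Nd4l and mt-Nd4. Gm28437 was identical to mt-Co3 over 783 of 784 bases, Gm10925 to mt-Atp6 over 678 of 681, Gm28661 to mt-Co2 over 681 of 684, Gm10222 to mt-Nd4l over 294 of 297 and Gm28439 to mt-Nd4 over 876 of 1378. The other two copies each differed from their mitochondrial gene at 1 position. They are shown from the 5′ end of the shared stretch, with the differing base in capitals, because a read covering it is the kind that could tell the copies apart. Positions count from 1 at the first base of the mitochondrial gene, whose base stands first in A1066T for mt-Co1 and Gm29216 and in T3C for mt-Nd3 and Gm28438.
mt-Co1, chrM:6391-6429, plus strand: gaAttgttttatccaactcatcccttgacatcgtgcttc
Gm29216, chr1:24616149-24616187, minus strand: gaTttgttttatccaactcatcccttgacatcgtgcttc
mt-Nd3, chrM:9459-9497, plus strand: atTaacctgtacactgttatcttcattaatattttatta
Gm28438, chr1:24613081-24613119, minus strand: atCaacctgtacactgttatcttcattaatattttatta

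The first 60 bases of mt-Co3, which opens the complex IV subunit gene with the largest share of its counts on a copy, are all present in Gm28437 and are therefore given in capitals.
mt-Co3, chrM:8607-8666, plus strand: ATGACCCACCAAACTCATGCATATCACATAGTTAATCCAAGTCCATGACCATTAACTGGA

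Neighbouring messages also overlap on the mitochondrial genome itself. The pair mt-Atp8 and mt-Atp6 encodes ATP synthase subunits on 1 bicistronic RNA and shares 43 bases, and mt-Nd4l and mt-Nd4, a bicistronic pair of complex I, share 7. The capitals mark the shared bases, which run from the start codon of the downstream frame to the stop codon of the upstream frame, with 20 bases on either side.
mt-Atp8/mt-Atp6, chrM:7907-7989, plus strand: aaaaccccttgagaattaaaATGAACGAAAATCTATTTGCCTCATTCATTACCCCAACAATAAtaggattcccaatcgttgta
mt-Nd4l/mt-Nd4, chrM:10147-10193, plus strand: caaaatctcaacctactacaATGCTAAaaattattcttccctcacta

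The nuclear copies held many of the deposited counts. The 11 pseudogenes with at least 95% identity over at least 100 bases, including the 7 on chromosome 1, were listed with 127172 and 106096 counts in control 1 and control 2, and with 144779 and 107891 in mutant 1 and mutant 2. All but 23 to 52 of these counts per library stood on the chromosome 1 cluster. For mt-Co3, 91.4% to 92.9% of the counts of gene and copy stood on the copy in every library: mt-Co3 had 5537 and 5525 counts in control and 6905 and 4806 in mutant cells, and Gm28437 had 72705, 58959, 75236 and 55472. For mt-Co1 the copies' share was 35.2% to 39.8%, nearly all of it on Gm29216, whose 483 aligned bases cover 31.3% of the gene. These shares were similar in all libraries.

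In other members the division differed between libraries. For mt-Atp6 the copy Gm10925 took 16.4% and 24.96% of the summed counts in control 1 and control 2, but 7.16% and 7.63% in mutant 1 and mutant 2, so both mutant libraries lay below both controls. The share of Gm28438 in the counts for mt-Nd3 ran from 30.2% in control 1 to 63.8% in control 2. For mt-Nd4l the copy Gm10222 took 72.6% to 86.5%. For mt-Co2 the copies took at most 1.60%, and Gm28439 was at 0 in every library although its bases are identical to those of mt-Nd4. Reads from identical sequence cannot be assigned to 1 place, so single values of mt-Co1, mt-Co2, mt-Atp6, mt-Co3, mt-Nd3 and mt-Nd4l are uncertain. Below, such members are given as deposited and with the counts of their copies added where this changed their pattern.

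**Figure D1:**
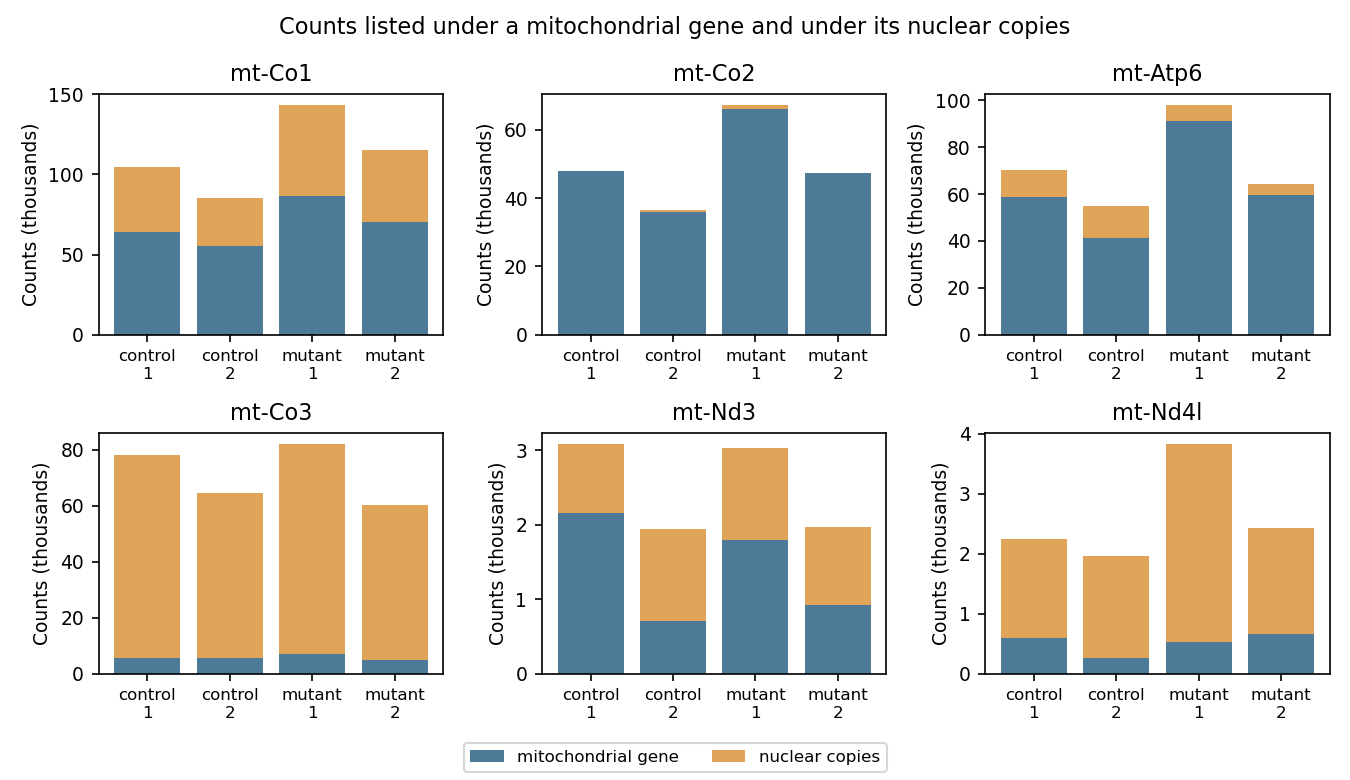
Stacked bars give, for 6 mitochondrial genes and each library, the deposited counts, scaled as the axis states, listed under the gene (blue) and under its nuclear copies (orange), from 0. Most counts for mt-Co3 and mt-Nd4l stood on the copies, almost none for mt-Co2, and for mt-Atp6 the copies' part was 16.4% and 24.96% in control against 7.16% and 7.63% in mutant libraries.

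With copies added, the order of levels per length in control cells began with mt-Atp6, at 2069 ± 129 CPM per kilobase, and mt-Co3, at 2052 ± 47.1 (SD, n = 2). The difference between these neighbours was smaller than their spread. The other complex IV subunit genes, mt-Co2 (1385 ± 113) and mt-Co1 (1382 ± 45.3), and the cytochrome b gene mt-Cytb of complex III (1348 ± 26.6) followed at levels per kilobase within each other's spread. Then came mt-Atp8 (1031 ± 28.6) and mt-Nd1 (803 ± 107). The remaining complex I genes were lower per kilobase, from mt-Nd4 (409 ± 0.999) and mt-Nd5 (379 ± 24.5) through mt-Nd6 (268 ± 38.0) and mt-Nd2 (177 ± 13.7) to mt-Nd3 (161 ± 34.1) and mt-Nd4l (160 ± 2.88). The difference between mt-Nd3 and mt-Nd4l was again within the spread.

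As deposited, mt-Co3 would stand at only 160.2 CPM per kilobase, eleventh of the protein genes rather than next to the top, and mt-Nd4l at 32.05. The large rRNA gene mt-Rnr2 was at 350 ± 9.85 and the small rRNA gene mt-Rnr1 at 39.4 ± 0.256 CPM per kilobase in control cells (SD, n = 2), below most messages. Lengths are those of the annotated genes, with no correction for fragment size. How well the library protocol captures rRNAs, tRNAs and messages was not tested. These levels therefore describe the counts in these libraries, not the amounts of each RNA in the cells.

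Complex I subunit genes were mostly higher in mutant 1 and close to control in mutant 2. The long message mt-Nd5 was at 724 and 660 CPM in control 1 and control 2, and at 1010.3 and 742 CPM in mutant 1 and mutant 2. On these TMM-scaled levels both mutant libraries lay above both controls, by a small margin in mutant 2. Its log2 change, mutant minus control, was 0.34 ± 0.20 (SE, n = 2 each; edgeR's quasi-likelihood test, adjusted p = 0.93). The gene mt-Nd4 was at 565 and 563 CPM in control and 875 and 607 CPM in mutant cells, a log2 change of 0.39 ± 0.22 (edgeR, adjusted p = 0.922). Here too the genotypes did not overlap on the TMM scaling.

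In mt-Nd1, mt-Nd2 and mt-Nd6 they did overlap. Levels of mt-Nd1 were 841 and 696 CPM in control and 1059 and 775 CPM in mutant cells. Levels of mt-Nd2 were 194 and 174 CPM in control and 282 and 180.1 CPM in mutant cells. In both genes mutant 2 lay between the controls. The only protein gene transcribed from the other strand, mt-Nd6, was at 153 and 125 CPM in control and 233 and 151 CPM in mutant cells, with mutant 2 again between the controls. The log2 changes of mt-Nd2 and mt-Nd6 were 0.33 ± 0.25 and 0.46 ± 0.26 (SE, n = 2 each; edgeR, adjusted p = 0.974 and 0.922). The message of mt-Nd6 overlaps mt-Nd5 by 14 bases on the opposite strand, and these libraries carry no strand information, so reads from both strands there are counted alike.

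The short complex I genes mt-Nd4l and mt-Nd3 had most or much of their counts on copies. As deposited, mt-Nd4l was at 12.5 and 6.50 CPM in control and 10.7 and 14.6 CPM in mutant cells, overlapping, with mutant 2 the highest. With copies added it was at 46.8 and 48.05 CPM in control and 76.7 and 53.3 CPM in mutant cells, without overlap and with mutant 1 the highest. Its log2 change was 0.41 ± 0.44 as deposited and 0.45 ± 0.22 with copies added (SE, n = 2 each; edgeR, adjusted p = 1 and 0.896). For mt-Nd3 the deposited levels were 44.98 and 17.3 CPM in control and 35.99 and 20.4 CPM in mutant cells. With copies added they were 64.5 and 47.7 against 60.7 and 43.3 CPM, and the genotypes overlapped on both countings.

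The complex III gene mt-Cytb was at 1564 and 1521 CPM in control and at 2062 and 1546 CPM in mutant cells. Mutant 1 stood apart, and mutant 2 lay between the controls. Its log2 change was 0.23 ± 0.19 (SE, n = 2 each; edgeR, adjusted p = 0.986), and quantile normalization turned its direction (-0.19).

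The 3 catalytic-core genes of complex IV differed in pattern. With copies added, mt-Co1, which carries the haem and copper centre where oxygen is reduced, was at 2184 and 2085 CPM in control and 2866 and 2528 CPM in mutant cells. Both mutant libraries lay clearly above both controls, and this member had the smallest p on that counting (log2 change 0.34 ± 0.14, SE, n = 2 each; edgeR, adjusted p = 0.863). As deposited its log2 change was 0.28 ± 0.14, with 1343, 1351, 1726 and 1546 CPM. The gene mt-Co2, which encodes the subunit that takes electrons from cytochrome c, was at 1000.4 and 878 CPM in control and 1324 and 1039.9 CPM in mutant cells as deposited, again without overlap. With copies added it was at 1002 and 892 against 1345 and 1040.4 CPM. Over library totals alone, without TMM, mutant 2 lay between the controls on both countings.

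By contrast mt-Co3 with its copy was at 1635 and 1582 CPM in control and at 1643 and 1326 CPM in mutant cells. Mutant 1 was barely above control 1 and mutant 2 was the lowest library, and the log2 change was -0.12 ± 0.17 (SE, n = 2 each; edgeR, adjusted p = 1). As deposited the log2 change was -0.04 ± 0.19, and its sign turned without control 2 (0.08) and without mutant 2 (0.14).

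Of the ATP synthase genes, mt-Atp6 overlapped between genotypes or not depending on the copies, while mt-Atp8 had none added. As deposited, mt-Atp6, the proton channel subunit, was at 1230 and 1011 CPM in control and 1819 and 1306 CPM in mutant cells, without overlap. Its log2 change of 0.48 ± 0.23 had the smallest p of all members on that counting (edgeR, adjusted p = 0.896). With copies added it was at 1471 and 1347 CPM in control and 1960 and 1414 CPM in mutant cells, so that mutant 2 lay between the controls. The log2 change was then 0.26 ± 0.21 (edgeR, adjusted p = 0.981). Its overlapping partner mt-Atp8 was at 214 and 206 CPM in control and 273 and 216 CPM in mutant cells, a log2 change of 0.22 ± 0.17.

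The summed levels by complex followed the single genes. As deposited, mutant over control was 1.26-fold for complex I, 1.17-fold for mt-Cytb as the only member of complex III, 1.22-fold for complex IV and 1.36-fold for ATP synthase. With copies added the sums were 2588 and 2314 CPM in control and 3597 and 2550.3 CPM in mutant cells for complex I, where mutant 2 lay between the controls. For complex IV they were 4821 and 4560 against 5854 and 4894 CPM, without overlap on this TMM scaling. Over library totals alone, the complex IV counts with copies added were lower in mutant 2 than in both controls. For ATP synthase the sums with copies added were 1686 and 1553 against 2232 and 1629.8 CPM, which overlapped. The deposited sums of 1445 and 1217 against 2092 and 1522 CPM had not. Two-sided exact permutation p-values over libraries were 0.333, the smallest possible here, for the sums without overlap and 0.667 for the others.

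The rRNA genes mt-Rnr1 and mt-Rnr2 were high only in mutant 1 of these libraries. The small rRNA was at 37.8 and 37.4 CPM in control, at 66.0 in mutant 1 and at 34.9 CPM in mutant 2. The large rRNA was at 564 and 542 CPM in control and at 691 and 553 CPM in mutant cells. In both genes the genotypes overlapped, with log2 changes of 0.42 ± 0.33 and 0.17 ± 0.17 (SE, n = 2 each; edgeR, adjusted p = 0.979 and 1).

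**Figure D2:**
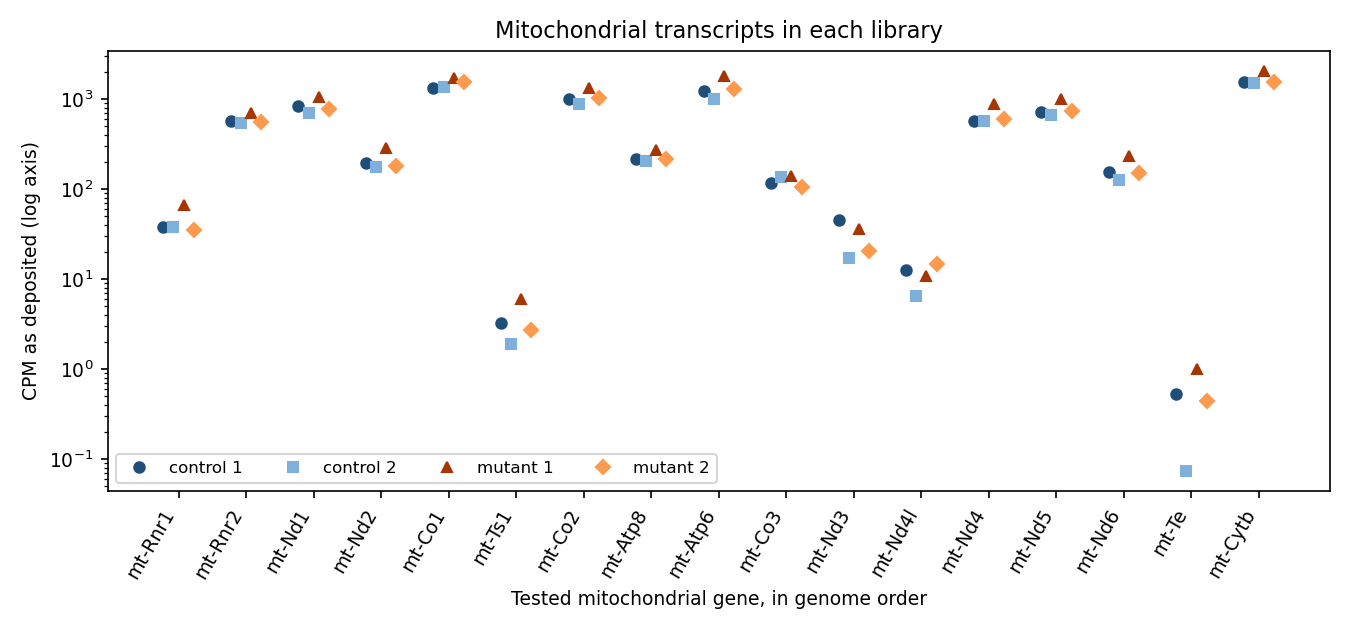
Points give the level of each tested mitochondrial gene as deposited, in CPM on a log axis, with 1 point per library. The triangle of mutant 1 is the highest point in most genes, for example at 2062 CPM in mt-Cytb, while mutant 2 stays near the controls.

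Of the 22 tRNA genes, 12 were at 0 in all libraries. A count of 0 leaves room for an expected count of up to about 3 per library (95% limit). The 8 tRNA genes of the minus strand together had 189 and 83 counts in control and 358 and 151 in mutant libraries. The 14 of the plus strand had 0 to 6 counts per library. The genes mt-Ts1, for a serine tRNA, and mt-Te, for glutamate tRNA, were the ones that passed the filter on low counts. Both lie on the minus strand beside abundant messages, mt-Ts1 overlapping the end of mt-Co1 by 3 bases and mt-Te between mt-Nd6 and mt-Cytb, and they are shown on their own strand because they are the tRNA sequences these libraries reported at a measurable level.
mt-Ts1, chrM:6870-6938, minus strand: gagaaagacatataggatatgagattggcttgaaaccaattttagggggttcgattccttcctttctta
mt-Te, chrM:14071-14139, minus strand: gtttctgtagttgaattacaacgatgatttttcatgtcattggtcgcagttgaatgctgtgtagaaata

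Their counts were 156, 77, 298 and 125 for mt-Ts1 and 25, 3, 50 and 20 for mt-Te, with controls before mutants. Mutant 1 was highest and control 2 lowest for both. The log2 changes were 0.76 ± 0.69 and 1.26 ± 1.36 (SE, n = 2 each; edgeR, adjusted p = 0.992 and 1). Since the library chemistry does not mark the strand, a read of the tRNA cannot be told from a read of the RNA opposite it.

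Across the members, 17 had enough counts to be tested: all 13 protein genes, both rRNA genes, mt-Ts1 and mt-Te. In edgeR 0 of these 17 passed an adjusted p of 0.05, where 0 of 16517 tested genes did (0%), and 0 had an unadjusted p under 0.05, against 6.21% of all tested genes. DESeq2 called 0 of the 17 at an adjusted p of 0.05, against 0.914% of all genes. Unadjusted, 5 members had a DESeq2 p under 0.05, against 7.32% of all genes: mt-Co1, mt-Co2, mt-Atp6, mt-Nd4 and mt-Nd5. The fitted change was above 0 in 15 of 17 members, against 48.7% of all tested genes. Exceptions were mt-Co3 and mt-Nd3. Both mutant libraries lay above both controls in 6 members, mt-Co1, mt-Co2, mt-Atp8, mt-Atp6, mt-Nd4 and mt-Nd5, against 16.1% of all genes, and below both in 0, against 20.4%. With copies added the number was again 6, with mt-Nd4l in place of mt-Atp6. This separation depended in part on the scaling. The TMM factors were 0.9933 and 1.0488 in control 1 and control 2, and 1.0084 and 0.952 in mutant 1 and mutant 2. Over library totals alone, mutant 2 lay between the controls for mt-Co2, mt-Nd4 and mt-Nd5 and below both for mt-Atp8. As deposited, mt-Co1 and mt-Atp6 kept the separation. The median log2 change was 0.33, beside -0.013 for all tested genes. These members share precursor RNAs and libraries and are not independent of each other.

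That median rested on 1 library. Mutant 1 was the highest library in 15 of the 17 members, against 27.5% of all tested genes. On log2(CPM + 1), the members' median stood 0.50 above the control mean in mutant 1 and 0.10 above it in mutant 2, while the controls stood at 0.08 and -0.08. Mutant 1 exceeded mutant 2 by a median of 0.45, more than control 1 exceeded control 2 (0.16). Without mutant 1 the median log2 change was 0.09, or 0.037 with copies added, and mt-Rnr1 and mt-Nd2 turned to -0.11 and -0.03. Without mutant 2 it was 0.50, and 10 members had an unadjusted p under 0.05 in edgeR, against 17.4% of all genes in that fit.

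As a share of all counts, mitochondrial genes took 0.855% and 0.831% in control libraries against 1.17% in mutant 1 and 0.841% in mutant 2. The Wilson 95% intervals, which cover counting error only, were 0.8519% to 0.8571%, 0.8278% to 0.8335%, 1.167% to 1.173% and 0.8385% to 0.8437%. Mutant 2 thus lay between the controls, and mutant 1 above them. The insulin genes took 12.8% of all counts in mutant 2 and 17.5% to 20.02% in the other libraries. With them left out of the total, the shares were 1.068% and 1.007% in control and 1.463% and 0.964% in mutant cells, with mutant 2 the lowest (log2 difference 0.196; exact permutation test, two-sided, p = 1). With copies added the shares were 1.118%, 1.10%, 1.46% and 1.07%, and mutant 2 was the lowest. For the log2 share as deposited, an exact permutation test over libraries, two-sided, gave p = 0.667 (difference 0.24). That share was higher in 1 of 2 mutant libraries than in both controls. The smallest p that 2 against 2 libraries allow is 0.333. With copies added the log2 difference was 0.169, and the same permutation test gave a larger p than as deposited.

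Nuclear genes of the same complexes were not higher alongside. All 76 listed nuclear subunit and associated genes of oxidative phosphorylation passed the filter, 31 higher and 45 lower, with a median log2 change of -0.017. None passed in edgeR (0% of all tested genes), and 0 of 76 had an unadjusted p under 0.05 (6.21% of all). Both mutant libraries lay above both controls in 7 (16.1% of all genes) and below both in 11 (20.4% of all genes). The smallest p belonged to the complex IV genes Cox5a, at 37.6 and 36.2 CPM in control and 45.7 and 43.5 CPM in mutant cells, and Ndufa4, at 48.6 and 40.7 against 55.4 and 53.0 CPM. The complex I genes Ndufb7 and Ndufc2 followed, with log2 changes of 0.23 and -0.21.

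Relative to the mean of both controls, their median stood at 0.06 in mutant 1 and -0.12 in mutant 2, so mutant 1 did not stand apart in these genes as it did in the mitochondrial ones. By complex, the median log2 change was -0.03 in 36 genes of complex I, where 14 were higher, and -0.12 in 9 genes of complex III, where 1 was higher. It was 0.024 in 11 genes of complex IV, 7 of them higher, and -0.008 in 16 of ATP synthase, 7 of them higher. Of the 4 genes of complex II, which has no mitochondrially encoded subunit, 2 were higher.

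**Figure D3:**
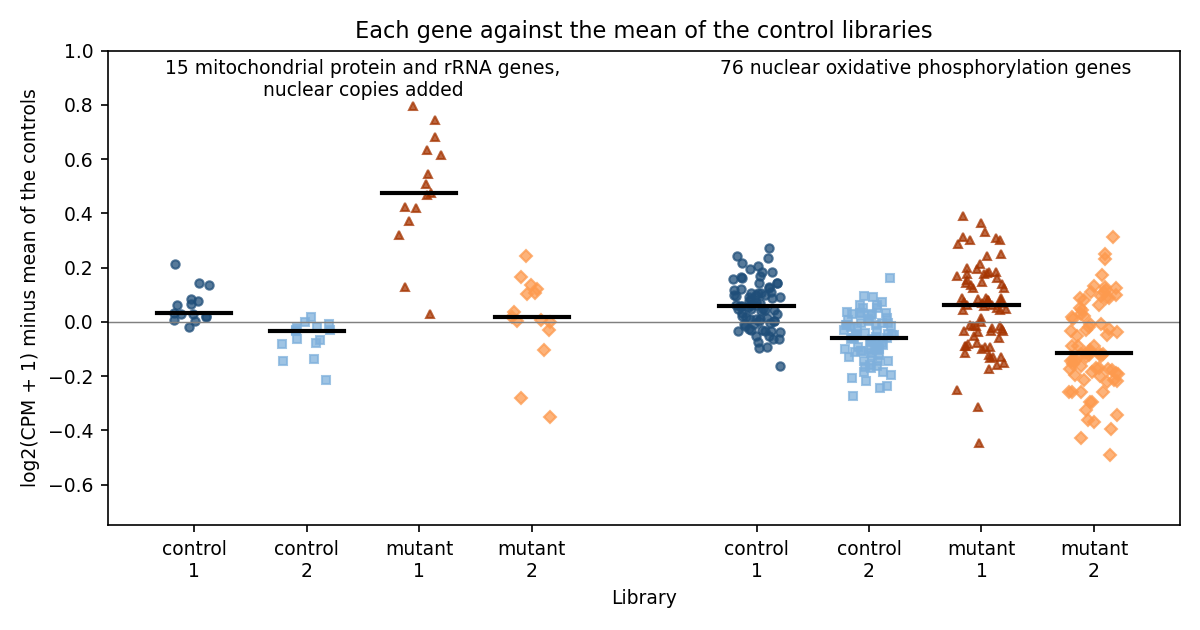
Points give log2(CPM + 1) of each gene minus the mean of the control libraries, by library, and black bars give medians. The 15 mitochondrial protein and rRNA genes on the left, with copies added, sit around 0.48 in mutant 1 and 0.018 in mutant 2, while the 76 nuclear genes on the right sit around 0.06 and -0.12.

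The ratio of summed mitochondrial to summed nuclear oxidative phosphorylation counts does not depend on the library total. It was 1.09 and 1.03 in control 1 and control 2, and 1.46 and 1.18 in mutant 1 and mutant 2, so both mutant libraries lay above both controls. With copies added it was 1.43 and 1.37 against 1.825 and 1.5. The log2 difference was 0.31, or 0.24 with copies added, higher in 2 of 2 mutant libraries (exact permutation test, two-sided, p = 0.333 for each, the smallest that 2 against 2 libraries allow). It stayed above 0 without each library in turn (0.16 to 0.46). The nuclear genes summed to 7863 and 7690 CPM in control and to 7950 and 7475 CPM in mutant libraries, lowest in mutant 2. The mitochondrial genes summed to 8607 and 7926 against 11612 and 8840 CPM as deposited. With copies added they summed to 11264 and 10530 against 14510 and 11212 CPM, with mutant 2 between the controls. In mutant 2 the higher ratio thus came with a low nuclear sum. Acinar markers summed highest in mutant 2 (50899 CPM) and early response genes summed to 12591 and 15328 CPM in mutant against 10083 and 4399 CPM in control libraries, and their part in this ratio was not tested. The 4 delta cell markers summed to 1063 and 981 CPM in control and to 2506 and 1289 CPM in mutant libraries, with mutant 1 the highest library in 2 of the 4. The 4 immune markers summed to 23.2 and 7.21 CPM in control and to 27.4 and 24.1 CPM in mutant libraries, with mutant 1 the highest in 2 of them. The 5 stromal markers summed to 2191 and 655 CPM in control and to 888 and 11.3 CPM in mutant libraries, with mutant 2 the lowest. The part of these lists was not tested either.

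Within the mitochondrial counts, 7 of the 15 protein and rRNA genes did not overlap between genotypes with copies added, and mt-Co3 differed most. On CPM, both mutant libraries lay above both controls in 16.1% of all tested genes and below both in 20.4%. No such background was computed for shares, so the count of 7 is descriptive only. With copies added, mt-Co3 made up 14.5% and 15.03% of the counts of the protein and rRNA genes in control 1 and control 2, and 11.3% and 11.8% in mutant 1 and mutant 2. The mutant libraries lay close together and both below the controls, although they differed in total mitochondrial counts. The next message downstream, mt-Nd3, made up 0.572% and 0.453% in control and 0.419% and 0.386% in mutant cells. The log2 differences of these shares were -0.35 and -0.34, lower in 2 of 2 mutant libraries in each case (exact permutation test, two-sided, p = 0.333, the smallest these libraries allow).

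In the other direction, mt-Nd4l made up 0.416% and 0.456% in control and 0.529% and 0.475% in mutant cells. The share of mt-Nd4 was 5.02% and 5.35% in control against 6.03% and 5.41%. For these the log2 differences were 0.20 and 0.14, with mutant 1 the higher mutant library in each. The gene mt-Co2 made up 8.90% and 8.48% in control and 9.27% and 9.28% in mutant cells. The share of mt-Nd5 was 6.43% and 6.27% in control against 6.97% and 6.62%, also without overlap. The seventh, mt-Rnr2, was lower, at 5.01% and 5.15% against 4.77% and 4.93%. The shares of mt-Cytb (13.9%, 14.4%, 14.2% and 13.8%) and of mt-Atp6 (13.1%, 12.8%, 13.5% and 12.6%), each with controls before mutants, overlapped. Such shares sum to a whole, so a lower share of 1 gene raises the others. Counted without copies, mt-Co3 made up 1.34% and 1.71% in control and 1.19% and 1.20% in mutant cells, and mt-Nd3 0.523% and 0.218% against 0.310% and 0.231%, so that mt-Nd3 overlapped on that counting while mt-Co3 did not.

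**Figure D4:**
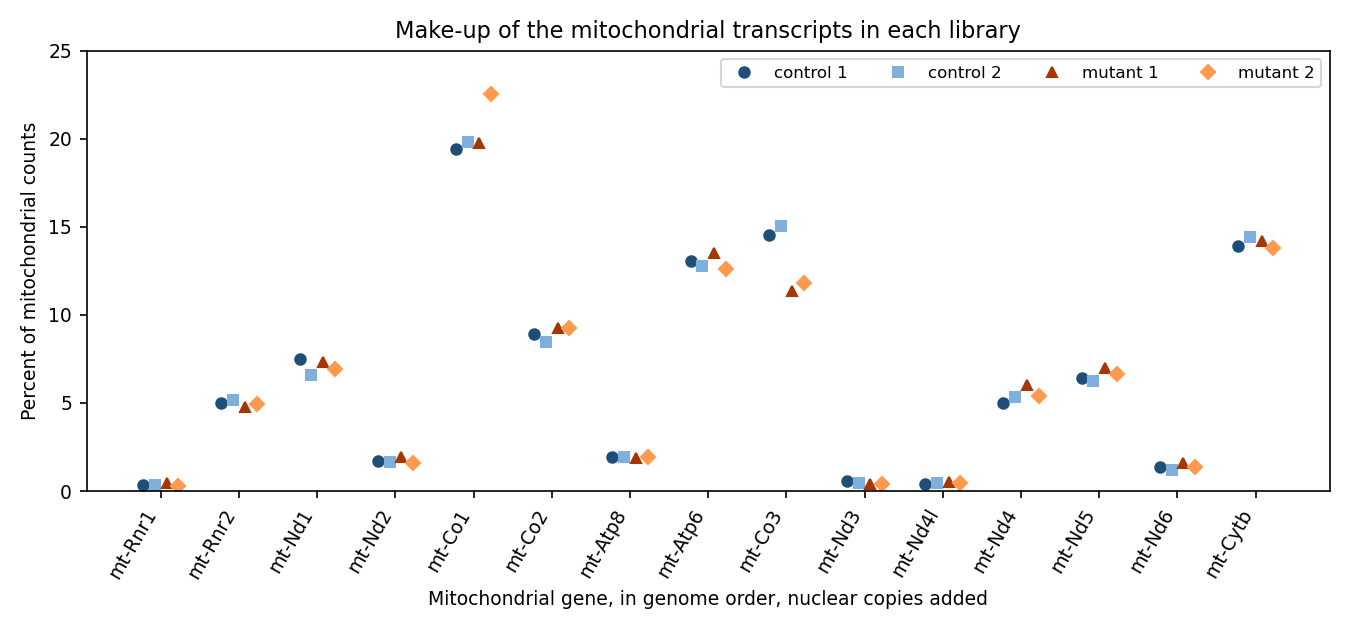
Points give each gene's percent of the counts of the 15 mitochondrial protein and rRNA genes in each library, nuclear copies added. For mt-Co3 the mutant libraries sit at 11.3% and 11.8%, below the controls at 14.5% and 15.03%, while mt-Cytb sits between 13.8% and 14.4% in all libraries.

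Nuclear genes that make, handle and translate mitochondrial RNA gave 0 calls at an adjusted p of 0.05 in edgeR. Of 10 genes of mitochondrial transcription, 2 were higher and 8 lower, where 48.7% of all tested genes were higher. None (0) had an unadjusted p under 0.05 in edgeR (6.21% of all tested genes), and the median log2 change was -0.31. The 8 include 2 scarce genes, Mterf1a (0.10 to 3.85 CPM) and Mterf1b (0 to 1.35 CPM). The log2 changes of these 2 had large SEs, 1.51 and 2.42. The polymerase gene Polrmt was at 27.9 and 23.5 CPM in control and 22.05 and 17.2 CPM in mutant cells, and the packaging and initiation factor gene Tfam at 32.6 and 36.8 against 33.1 and 39.7 CPM. These named transcription genes were chosen after their values were seen. Of 31 genes of RNA processing, modification and decay, 13 were higher and 18 lower, and 1 of them was higher with an unadjusted p under 0.05, against 1.99% of all tested genes. Further, of 12 genes of translation 4 were higher and 8 lower.

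Among these lists Nsun4 had the smallest p. It encodes a methyltransferase of the small mitochondrial rRNA, and it stood at 8.27 and 9.89 CPM in control and 25.8 and 23.4 CPM in mutant cells, 2.71-fold higher. The libraries of each genotype lay close together in Nsun4, and its relation to the level of mt-Rnr1 was not tested. Its log2 change was 1.44 ± 0.24 (SE, n = 2 each; edgeR, adjusted p = 0.68). DESeq2 called Nsun4 (adjusted p = 0.00274), where it called 0.914% of all tested genes. Nsun3, which encodes a methyltransferase of a mitochondrial tRNA, was at 22.4 and 22.8 CPM in control and 37.5 and 27.6 CPM in mutant cells. Gfm2, a factor gene of mitochondrial ribosome recycling, was at 27.9 and 34.3 against 22.8 and 18.8 CPM. Fastkd1, of a family of RNA-binding proteins of mitochondria, was scarce, at 2.13 and 0.908 CPM in control and 0.020 and 0.308 CPM in mutant cells.

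Of 22 genes of mitochondrial biogenesis and dynamics, 12 were higher and 10 lower, with a median log2 change of 0.024. Pprc1, the gene of a coactivator related to PGC-1, was at 32.0 and 36.4 CPM in control and 16.6 and 20.9 CPM in mutant cells (log2 change -0.87 ± 0.21, SE, n = 2 each; edgeR, adjusted p = 0.68). It was the 1 member of the list with an unadjusted p under 0.05, where 4.21% of all tested genes were lower at that level. The fission gene Dnm1l was at 73.9 and 86.3 CPM in control and 94.0 and 101.1 CPM in mutant cells. The fusion gene Opa1 was at 87.1 and 99.0 against 65.7 and 84.0 CPM, and the fusion gene Mfn2 at 128 and 131 against 115 and 119 CPM. Other genes of fusion and fission differed from these: Mfn1 (log2 change 0.16) and Fis1 (-0.10), both named after their values were seen, overlapped between genotypes. Of 10 genes of mitochondrial DNA maintenance, 4 were higher, and Rrm2b, a ribonucleotide reductase subunit gene named after its values were seen, was the 1 with an unadjusted p under 0.05, where 1.99% of all tested genes were higher at that level (33.3 and 39.2 against 49.96 and 47.7 CPM).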

How the data were processed

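RNA was extracted with TRIzol and converted with a low-input SMART-Seq v4 and Nextera XT protocol, per the labels' protocols. Per the submitters' processing notes build GRCm38 was used, with edgeR 3.16.5 and RSEM 1.3.0 named besides STAR 2.5.3a and bcl2fastq 2.20.0.422. Their roles and the annotation were not given in the sources used here. Values of the deposited table are estimated counts per gene as RSEM makes them, in whole numbers. Its name calls them normalized, so an earlier rescaling is not excluded, and counting intervals are then approximate. There were 0 columns of other samples.

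The 16517 genes that reached 10 counts in 2 or more libraries were tested with TMM factors, glmQLFit and glmQLFTest of edgeR 4.0.16 (R 4.3.3), mutant against control, two-sided, Benjamini-Hochberg adjusted over all of them. Standard errors are the log2 change over the root of F. DESeq2 1.42.0 and limma 3.58.1 served as alternatives. The same edgeR test was also run on simulated counts in separate code, and its outcome is not given here. Nuclear copies were found with blastn 2.17.0 among GENCODE M21 transcripts (51719 of 51912 identifiers matched), and adding their counts was chosen after seeing the data. All protein and rRNA members, the tRNA members that passed the filter, the 4 genes of smallest p of each of 3 nuclear lists and 7 check genes are named. Of 35 listed RNA-processing genes 31 were found. Members and lists were chosen with earlier results of these data known.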

Additional observations from a re-analysis of the deposited data

How the results depend on the processing

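No paired analysis was possible because the labels give the libraries no shared replicate numbers. With 2 libraries a genotype, 2 residual degrees of freedom limit every test. The number of all genes past the threshold was 0, and 151 with DESeq2. It was 0 to 1 when each library was left out in turn, with the 1 call found without mutant 2. The number of mitochondrial genes past the threshold was 0 under all 17 alternatives. Their median log2 change was 0.20 to 0.35 under other scalings, filters and DESeq2. Leaving out each library it ran from 0.094 (without mutant 1) to 0.496 (without mutant 2), and with nuclear copies added from 0.037 to 0.507. The difference in log2 share of counts ran from -0.002 (without mutant 1) to 0.474 (without mutant 2). Signs turned for mt-Cytb under quantile normalization (-0.186), and without single libraries for mt-Nd3 (range -0.672 to 0.708, 0.116 and 0.125 at the turned signs with copies added), mt-Co3 (-0.248 to 0.138, up to 0.032 with copies added), mt-Rnr1 (-0.106 to 0.812, from -0.107 with copies added), mt-Nd2 (-0.031 to 0.618, from -0.032 with copies added), Ins1 (-0.386 to 0.126, turned at 0.011 too), Ins2 (-0.483 to 0.104) and Gcg (-0.131 to 0.878). The cause was not tested. Removing insulin from the total cannot change the ratio to nuclear genes. The stricter filter left mt-Te out.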
